A study of Bos taurus with 8 samples.

Results

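The genes described here build the peroxisome and carry out its lipid metabolism. They are 29 of the 15208 genes named on a cattle embryo microarray, 12 of them genes of the peroxins that assemble and supply the organelle and 17 of them genes of its enzymes and carriers. Members were taken by name, every array probe whose annotated symbol was one of the 29 being used, and the rule used no measured value. All 29 were found by symbol, on 56 probes, and none of the 29 lies on the X chromosome. The genes were proposed with earlier results of these data in view, so counts over them are descriptions.

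Peroxisomes are small organelles bounded by a single membrane that shorten very long and branched fatty acids, begin the synthesis of ether lipids such as plasmalogens, and make and destroy hydrogen peroxide. They hold no DNA, so their enzymes are made in the cytosol and imported already folded by the peroxins, the proteins encoded by PEX genes. In mammals, loss of a peroxin leaves cells with empty or missing peroxisomes, and cattle oocytes and early embryos are rich in stored lipid.

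The RNA came from Holstein and Jersey embryos recovered by flushing the uterus 6 days after insemination with semen that had been pooled. As the labels state, donors of both breeds had follicles over 8 mm aspirated, received FSH (Folltropin-V) in falling doses to a total of 400 mg, and were given 500 µg of a prostaglandin F2α analogue (Estrumate) with each of the last FSH injections. The labels give Holstein embryos good cryotolerance and Jersey embryos poor performance once frozen, and the question addressed is how their transcripts differ. Each of 8 two-colour arrays carried both breeds, 4 with Holstein in the red dye Cy5 and 4 with the dyes exchanged. The arrays filled 2 slides, 4 on each, as 4 replicates of each breed hybridised in both dye orientations. The numbers of donors and embryos behind a replicate, and the donors' ages, are not given in the sources used here. P-values therefore measure the spread between these samples only, which may be technical.

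Median spot intensity was 230 to 316 in Cy3 and 171 to 265 in Cy5, and 42.8% to 80.8% of probes lay above background in Cy3 and 41.7% to 63.2% in Cy5. The lowest shares of both dyes belonged to 1 array of pair 4. All 10 trophectoderm markers and all 6 inner cell mass markers were measured, 7 and 2 of them above background in both breeds on all arrays. Of the markers of other cells, 7 of 10 erythrocyte, 5 of 10 leukocyte, 6 of 10 cumulus and granulosa, 6 of 8 uterine epithelium and 2 of 4 hepatocyte genes had a usable probe. The log2 of the summed erythrocyte signal was 10.4 to 10.8 in Holstein and 10.9 to 12.5 in Jersey, the fetal globin HBG standing at -4.22 and -3.84 in the pairs of slide 1 and at 0.13 and 0.16 in those of slide 2. ALAS2, by contrast, stood at -0.33 and 0.44 on slide 1 and at -1.66 and -0.95 on slide 2. Of the 7 usable erythrocyte genes, 4 had means higher in Jersey and 3 higher in Holstein. Some primitive endoderm and granulosa markers lay higher in Holstein, the side to which most peroxisome genes leaned. PDGFRA stood at 0.77 ± 0.10 and GATA4 at 0.50 ± 0.10, and 3 of the 4 primitive endoderm genes had a usable probe. INHBA stood at 0.79 ± 0.24 and CYP19A1 at 0.54 ± 0.12, all 4 of these markers being higher in Holstein on 8 of 8 arrays. The other usable markers of both lists did not share this, with SOX17 at -0.03, STAR at 0.09, PTX3 at 0.05, TNFAIP6 at -0.17 and HAS2 at -0.10. Of the 6 inner cell mass markers, 3 had means higher in Holstein and 3 higher in Jersey. Among them SALL4 stood at -0.30 ± 0.08 and KLF17 at -0.30 ± 0.08, both below 0 in every pair. XIST, which female cells make from their inactive X chromosome, stood at -2.93 ± 0.35, and X-linked genes had a median of -0.14. The part of these cells, and of the sex of the embryos, in the results below was not tested. In RNA of whole embryos, fewer cells of a type and less RNA per cell cannot be told apart.

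A value below is the log2 of Holstein over Jersey, averaged over the 2 arrays of a dye-swap pair so that the dye cancels, and then over 4 pairs with the moderated standard error (SE) of limma. Probes were kept if Holstein or Jersey signal exceeded that of the negative controls on 4 or more of the 8 arrays, and each gene is represented by its brightest kept probe, with the others given beside it. Of the 56 probes, 49 were kept, for 28 of the 29 genes. PEX10, part of the ubiquitin ligase of the import machinery, had a single probe, above background on 2 arrays in Holstein and 1 in Jersey, and is left out of the counts below.

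Most peroxisome genes lay slightly above 0, and the individual differences were small. Of 28 genes, 22 had a mean ratio higher in Holstein and 6 higher in Jersey, where 52.7% of all 12342 genes were higher in Holstein. Counted by probe, 42 of 49 were higher in Holstein, against 50.7% of all kept probes. Probes of 1 gene are not independent, and some passed the filter through 1 breed alone. The second kept probes of PEX13, PEX2 and PEX11A and the only one of PIPOX passed through Holstein alone and were higher in Holstein. Through Jersey alone came the second PHYH probe, higher in Jersey, and a PEX7 probe near 0. The median was 0.07 over the members and 0.01 over all genes, and the ratios ran from -0.50 for PEX7 to 0.44 for HSD17B4. With Benjamini-Hochberg adjustment over 32129 probes, limma on pair means passed 0 of 28 genes, as it passed 0% of all genes, and the members' adjusted p ran from 0.128 to 0.986. An unadjusted p under 0.05 was reached by 4 members higher in Holstein, PEX5, PEX13, ABCD3 and HSD17B4, where the share over all genes was 8.46%. In Jersey it was reached by 2, PEX26 and SCP2, against 7.41%. A second limma fit used the 8 arrays singly, with terms for breed and dye and a random block for each pair. It passed 2 members higher in Holstein, PEX5 and ABCD3, against 2.33% of all genes. The same fit passed 0 members higher in Jersey, against 2.13%.

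The number of members above 0 differed between pairs, and 21 of the 28 means moved by over 1.5 times with some single pair left out, those of PEX5, PEX26, ABCD3, HSD17B4, SCP2, PHYH and PIPOX not. In pair 1 and pair 2, 15 of 28 members were higher in Holstein, in pair 3 it was 18 and in pair 4 it was 20, where all genes gave 50.01%, 51.3%, 50.7% and 53.0%. The same direction in 4 of 4 pairs was found for 7 members higher in Holstein, against 12% of all genes, and for 2 higher in Jersey, against 10.9%. On 8 of 8 arrays the direction held for 3 members higher in Holstein (PEX5, ABCD3 and HSD17B4), against 3.15%, and for 1 higher in Jersey (PEX26), against 2.73%. The members' median absolute ratio was 0.19 and their median SD between pairs 0.27, where all genes had 0.11 and 0.23. Among the 6705 genes above background in both breeds on all arrays the median absolute ratio was 0.18, and 14 of the 19 members in that class were higher in Holstein, where the class as a whole had 53.1%.

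**Figure D1:**
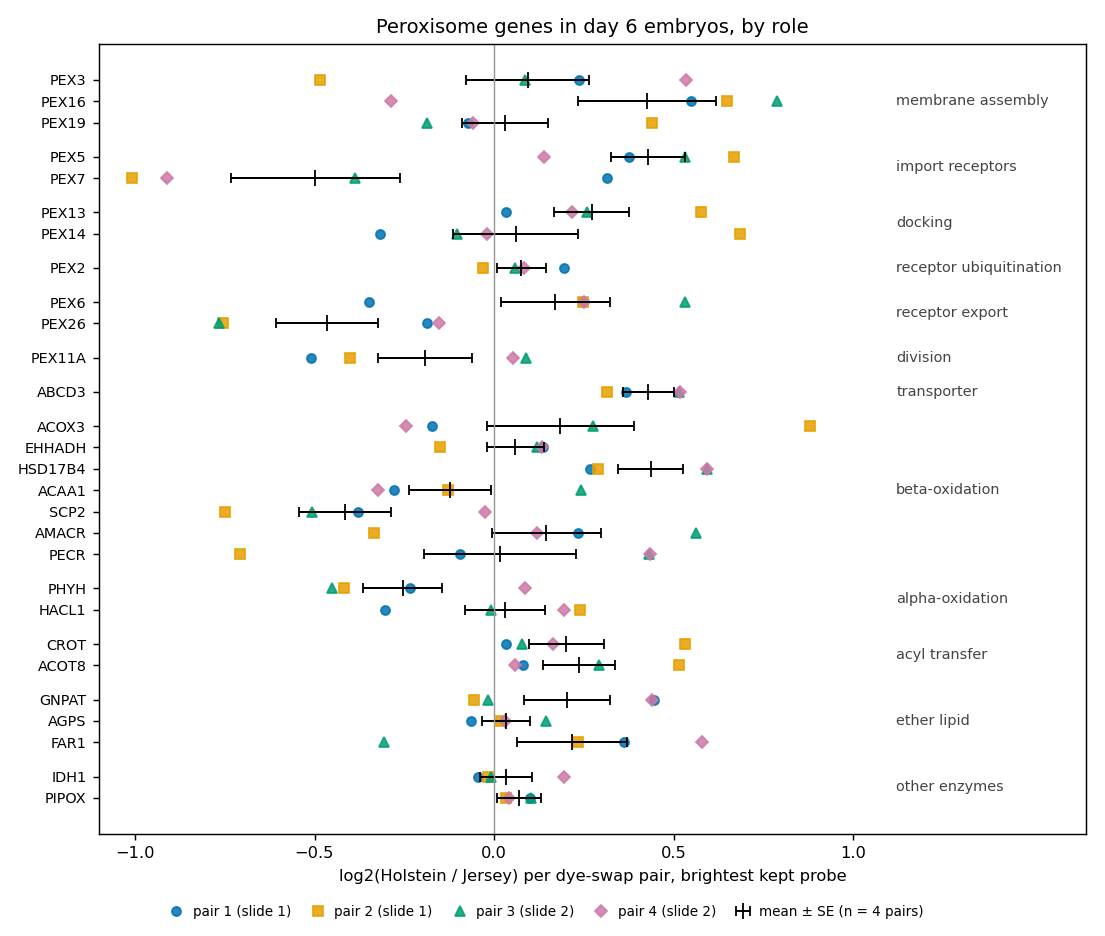
Log2 of Holstein over Jersey for the brightest kept probe of 28 peroxisome genes, arranged by role. Coloured symbols are the 4 dye-swap pairs and black bars the mean ± SE; 22 means lie to the right of 0, and the pairs of most genes fall on both sides of it.

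The membrane of the peroxisome is assembled by PEX19, a cytosolic chaperone that binds new membrane proteins, by PEX3, its receptor on the organelle, and by PEX16, which recruits PEX3. All 3 means lay above 0, at 0.03 ± 0.12 (SE, n = 4 pairs) for PEX19, 0.09 ± 0.17 for PEX3 and 0.42 ± 0.19 for PEX16. PEX16 stood at 0.55, 0.65 and 0.79 in pairs 1 to 3 and at -0.29 in pair 4, and its mean was 0.66 without pair 4. Its second probe had a lower mean of 0.17, with pairs 1 and 4 below 0. PEX19 was above 0 in pair 2 alone, at 0.44, against -0.19 to -0.06 in the other pairs.

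Some markers of the trophectoderm, the outer cell layer of the blastocyst, also had another sign in pair 4. The transcription factor TFAP2A stood at 1.57, 3.02 and 1.95 in pairs 1 to 3 and at -2.56 in pair 4, the keratin KRT19 at 0.74, 0.92, 1.72 and -2.13, and GATA2 at 0.39, 0.57, 0.67 and -0.45. These 3 were picked after their values were seen. CDX2 had the same signs, at 0.05, 0.66, 0.23 and -0.11, and GATA3, below 0 throughout, was lowest in pair 4, at -0.49. Other markers did not set pair 4 apart in this way. KRT18 stood at -0.67, -0.58, 0.23 and -0.74, KRT8 at -0.16, -0.19, 0.16 and -0.21, and TFAP2C (0.14) and ELF3 (0.05) were above 0 in pair 4. TEAD4 stood at -0.26, -0.42, 0.06 and -0.05. The median of the 10 trophectoderm markers was -0.03, 0.15, 0.20 and -0.33 in pairs 1 to 4. Their log2 summed signal nevertheless overlapped between the breeds, at 16.4 to 16.9 in Holstein and 16.6 to 16.9 in Jersey. Their part in the PEX16 values was not tested.

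Cargo enters the matrix bound to one of a pair of receptors, PEX5, which recognises the C-terminal signal carried by most matrix enzymes, and PEX7, which recognises an N-terminal signal and in mammals depends on a long form of PEX5. PEX5 (probe EMBV3_23742, chromosome 5) was 1.35-fold higher in Holstein. Its log2 signal over 8 arrays was 8.86 at the lowest, 9.18 at the median and 9.24 at the highest in Holstein, and 8.45, 8.66 and 9.11 in Jersey. The breeds overlapped across arrays, yet Holstein was the higher on each of the 8.

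By pair, PEX5 stood at 0.38, 0.67, 0.53 and 0.14, a mean of 0.43 ± 0.10 with a 95% interval of 0.17 to 0.69. Its limma adjusted p was 0.200 on pair means and 0.0359 in the block fit. The second PEX5 probe, EMBV3_27665, was above background on 5 of 8 arrays in each breed and had a mean of 0.03, with pairs between -0.04 and 0.09. So the difference was carried by only 1 of the 2 kept probes of this receptor.

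PEX7, the receptor whose cargo includes AGPS, PHYH and ACAA1, had the lowest mean of the members. Its brightest probe stood at 0.32, -1.01, -0.39 and -0.91 in pairs 1 to 4, a mean of -0.50 ± 0.24 with an interval of -1.09 to 0.10. Pair 1 thus opposed the other pairs, and the mean was -0.77 without pair 1 and -0.33 without pair 2. The other 3 probes had means of 0.26, 0.01 and 0.00, so that the gene had no single direction.

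PEX13 and PEX14 form the docking site in the membrane at which loaded receptors arrive. PEX13 (EMBV3_05782, chromosome 11) had a Holstein signal of 7.07, 7.62 and 7.84 (lowest, median and highest) and a Jersey signal of 6.78, 7.29 and 7.69, and these ranges overlapped. Its pairs were all above 0, at 0.03, 0.58, 0.26 and 0.22, with a mean of 0.27 ± 0.10 and an interval of 0.01 to 0.53.

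Holstein was higher on 7 of 8 arrays for PEX13, but its signal was above background on 7 arrays in Holstein and 4 in Jersey, and on the other arrays the ratio is limited by the floor of detection. Without pair 2 the mean was 0.17, and the limma adjusted p was 0.344 on pair means and 0.256 in the block fit. The second kept probe (EMBV3_18177) had a mean of 0.16, in the same direction. That probe was above background on 7 arrays in Holstein and 3 in Jersey, so it passed the filter through Holstein alone. Such a filter favours probes higher in Holstein, and its sign is therefore no separate evidence. The dropped probe, EMBV3_18470, was above background on 0 arrays in each breed and had a mean of -0.06. PEX14 had a mean of 0.06 ± 0.17, with pair 2 at 0.69 and the other pairs between -0.32 and -0.02.

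Once cargo is released, the receptor is ubiquitinated by a ligase that includes PEX2 and PEX10 and is pulled back to the cytosol with the help of the ATPase PEX6, which PEX26 anchors in the membrane. PEX26 (EMBV3_26530, chromosome 5) was 1.38-fold higher in Jersey. Its Holstein signal was 8.39, 8.86 and 9.28 and its Jersey signal 9.08, 9.30 and 9.39. The Holstein values spread widely while the Jersey values lay close together, and the ranges overlapped slightly, with Jersey the higher on 8 of 8 arrays.

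The pairs of PEX26 stood at -0.19, -0.75, -0.77 and -0.15, so both slides held a large and a small difference. The mean was -0.47 ± 0.14 with an interval of -0.82 to -0.11, and the limma adjusted p was 0.254 on pair means and 0.0598 in the block fit. The other 2 probes of PEX26 had means of 0.03 and 0.07 and did not share the direction. PEX6 had a mean of 0.17 ± 0.15, with pair 1 at -0.35 and the others at 0.25 to 0.53, and PEX2 had one of 0.08 ± 0.07. PEX11A, which elongates the membrane before peroxisomes divide, stood at -0.19 ± 0.13, at -0.51 and -0.40 in the pairs of slide 1 and at 0.09 and 0.05 in those of slide 2.

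**Figure D2:**
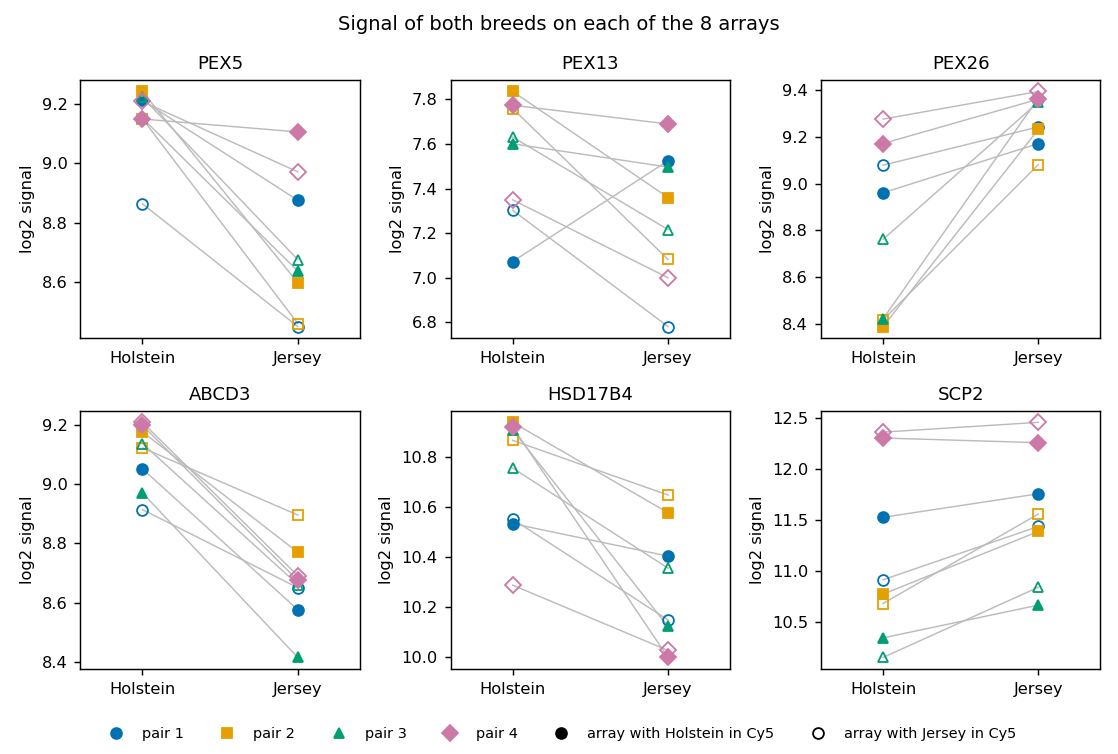
Log2 signal of Holstein and Jersey on each of the 8 arrays for the brightest probes of PEX5, PEX13, PEX26, ABCD3, HSD17B4 and SCP2; each line joins the breeds on 1 array, symbols mark the pair and open symbols the arrays with Jersey in Cy5. The lines of PEX5, ABCD3 and HSD17B4 all descend, those of PEX26 all climb, and PEX13 and SCP2 each have 1 line against the rest.

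Among the enzymes and carriers, the transporter ABCD3 had the smallest p of the members. Also called PMP70, it is an abundant half-transporter of the peroxisomal membrane that brings branched-chain and dicarboxylic fatty acids and bile acid precursors into the organelle as CoA esters. ABCD3 (EMBV3_27269, chromosome 3) was 1.35-fold higher in Holstein. Its Holstein signal was 8.91, 9.13 and 9.21 and its Jersey signal 8.42, 8.67 and 8.90. The lowest Holstein value lay above the highest Jersey value. Ranges that did not overlap, whichever breed was higher, were found for 1 of 28 members and 1.32% of all genes.

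By pair, ABCD3 stood at 0.37, 0.32, 0.51 and 0.52, a mean of 0.43 ± 0.07 with an interval of 0.25 to 0.61. The limma adjusted p was 0.128 on pair means and 0.0163 in the block fit. Its other 2 probes pointed the same way and were of like size. EMBV3_34543 stood at 0.38, 0.29, 0.76 and 0.58 (mean 0.50 ± 0.10, adjusted p of 0.0225 in limma in the block fit), and EMBV3_01753 at 0.52, 0.27, 0.93 and 0.07 (mean 0.45 ± 0.15). Probes of 1 gene share the same RNA and arrays and are not replicates of the breed difference.

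Inside the organelle, beta-oxidation runs from the acyl-CoA oxidases through the bifunctional enzymes HSD17B4 and EHHADH to the thiolases ACAA1 and SCP2. Of 7 genes grouped here with beta-oxidation, 5 were higher in Holstein and 2 in Jersey. HSD17B4, the D-bifunctional protein that handles very long and branched chains, was 1.35-fold higher in Holstein on its single kept probe (EMBV3_21785, chromosome 7). Its Holstein signal was 10.29, 10.81 and 10.94 and its Jersey signal 9.999, 10.25 and 10.65. The ranges overlapped, while Holstein was higher on 8 of 8 arrays.

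The pairs of HSD17B4 stood at 0.27 and 0.29 on slide 1 and at 0.59 and 0.59 on slide 2. The mean was 0.44 ± 0.09 with an interval of 0.21 to 0.67, and the limma adjusted p was 0.168 on pair means and 0.0626 in the block fit. EHHADH, the L-bifunctional enzyme of straight and dicarboxylic chains, was near the detection limit, above background on 4 arrays in each breed, with a mean of 0.06 ± 0.08. ACOX3, an oxidase of branched chains, was at 0.18 ± 0.20 with pair 2 at 0.88, and without that pair its mean was -0.05. ACAA1, the thiolase of straight chains, was at -0.12 ± 0.11, with pair 3 at 0.24, or -0.24 without pair 3 and -0.06 without pair 4.

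SCP2 encodes both a branched-chain thiolase and the shorter sterol carrier protein in mammals, and its probes disagreed. The brightest probe (EMBV3_00820, chromosome 3) was 1.33-fold higher in Jersey, with a Holstein signal of 10.15, 10.84 and 12.36 and a Jersey signal of 10.66, 11.50 and 12.46. The ranges overlapped over most of their length, as both breeds were highest on the arrays of pair 4, and Jersey was the higher on 7 of 8 arrays. By pair it stood at -0.38, -0.75, -0.51 and -0.03, a mean of -0.41 ± 0.13 with an interval of -0.74 to -0.09. Its limma adjusted p was 0.260 on pair means and 0.0654 in the block fit.

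The other 3 SCP2 probes pointed to Holstein in pairs 1 to 3 and to Jersey in pair 4. EMBV3_32404 stood at 0.69, 0.94, 0.54 and -0.55, EMBV3_29666 at 0.38, 0.83, 0.52 and -0.49, and EMBV3_12773 at 0.22, 0.68, 0.46 and -0.21. Their means were 0.41 ± 0.25, 0.31 ± 0.22 and 0.29 ± 0.16. In pairs 1 to 3 the brightest probe and the other 3 thus had opposite signs. Taken as the mean of its 4 probes, SCP2 was at 0.15, so its direction depended on the probe used. TFAP2A, KRT19, GATA2 and CDX2 had the same signs by pair as these 3 probes, and were picked after their values were seen. The other trophectoderm markers, KRT18, KRT8, TFAP2C, ELF3, GATA3 and TEAD4, did not have these signs. The part of these markers in the SCP2 values was not tested.

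**Figure D3:**
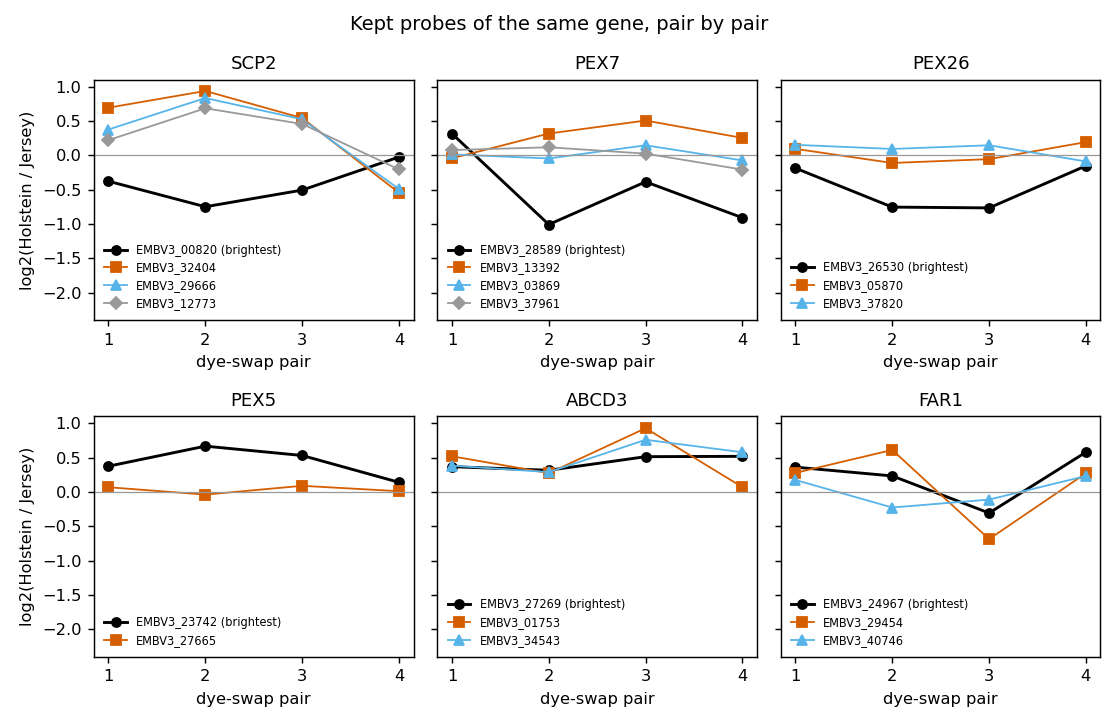
Log2 of Holstein over Jersey in each of the 4 dye-swap pairs for all kept probes of SCP2, PEX7, PEX26, PEX5, ABCD3 and FAR1, the brightest probe of each gene in black. The 3 probes of ABCD3 lie above 0 in every pair, whereas the brightest probes of SCP2 and PEX26 lie below 0 and the means of their other probes above it.

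AMACR and PECR were the other genes counted in the beta-oxidation group, a grouping made here. AMACR, the racemase that fits branched chains to the oxidases, was at 0.15 ± 0.15, or 0.31 without pair 2 and 0.007 without pair 3. PECR, an enoyl-CoA reductase, was at 0.02 ± 0.21, the mean of -0.40 on slide 1 and 0.43 on slide 2. Outside that group, CROT, the carnitine acyltransferase through which shortened chains leave, stood at 0.20 ± 0.10, and ACOT8, a thioesterase, at 0.24 ± 0.10, each higher in Holstein in 4 of 4 pairs. Jersey signal of CROT was above background on 4 of 8 arrays, the second ACOT8 probe had a mean of 0.06, and without pair 2 the means were 0.09 for CROT and 0.14 for ACOT8.

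Alpha-oxidation removes a carbon from chains whose methyl group blocks beta-oxidation. PHYH, the hydroxylase of phytanoyl-CoA, had a mean of -0.25 ± 0.11, with pairs at -0.23, -0.42, -0.45 and 0.09, and its dimmer second probe one of -0.31 ± 0.21. That second probe passed the filter through Jersey alone, so its sign is no separate evidence. HACL1, the lyase that follows, stood at 0.03 ± 0.11.

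Ether lipid synthesis begins with GNPAT, followed by AGPS, which builds the ether bond, and with FAR1, which supplies the fatty alcohol. All 3 means were above 0, and the pairs of each lay on both sides of it. GNPAT was at 0.20 ± 0.12, with pairs 1 and 4 at 0.45 and 0.44 and pairs 2 and 3 at -0.06 and -0.02. AGPS was at 0.03 ± 0.07. FAR1 was at 0.22 ± 0.15, with pair 3 at -0.31 and a mean of 0.39 without pair 3 and 0.10 without pair 4, and its other 2 probes had means of 0.12 and 0.02. IDH1, which makes NADPH in cytosol and peroxisome, was at 0.03 ± 0.07 and saturated on 1 array, and PIPOX, an oxidase of pipecolic acid and sarcosine, was at 0.07 ± 0.06, with Jersey above background on 3 of 8 arrays.

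Import machinery and enzymes did not separate by median. Holstein was the higher for 8 of 11 measured peroxin genes, whose median was 0.08, and for 14 of 17 enzyme and carrier genes, whose median was 0.07, where all genes had 0.01. The counts by pair were 6, 6, 7 and 6 of 11 for the import machinery and 9, 9, 11 and 14 of 17 for the enzymes, so the majority of enzymes above 0 was clearest in pair 4. On slide 1 alone, 8 of the 17 enzymes were higher in Holstein and their median was -0.01. The difference between the lists was not tested.

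**Figure D4:**
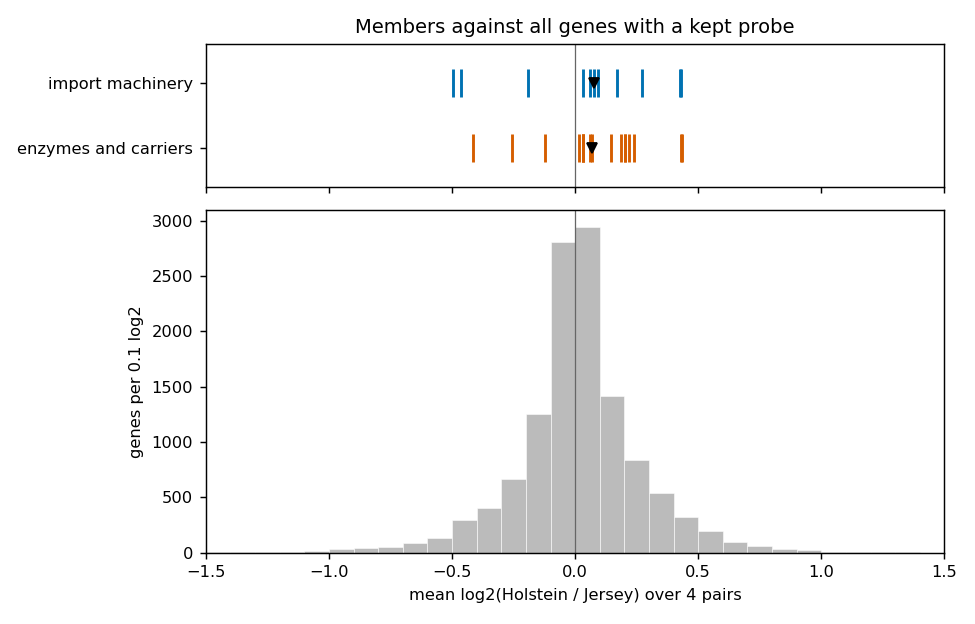
Mean log2 of Holstein over Jersey over 4 pairs for 11 import machinery genes and 17 enzyme and carrier genes (ticks, with triangles at the list medians) above the distribution over all genes with a kept probe, in bins of 0.1 between -1.5 and 1.5. The medians of 0.08 and 0.07 lie within the tallest bin, from 0 to 0.1, and all members lie between -0.50 and 0.44.

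The dye orientation shifted several members by more than the breed did. For 11 of 28 genes the mean of the 4 arrays with Holstein in Cy5 and that of the 4 with Jersey in Cy5 had opposite signs, which was so for 53.4% of all genes. GNPAT stood at 0.66 in the first orientation and at -0.26 in the second, PEX19 at 0.40 and -0.34, PEX14 at 0.43 and -0.31, and PEX11A at 0.17 and -0.55. Among the members past an unadjusted p of 0.05, PEX13 was the most uneven, at 0.05 and 0.49. PEX5 (0.38 and 0.47), ABCD3 (0.49 and 0.37), HSD17B4 (0.55 and 0.32), PEX26 (-0.55 and -0.38) and SCP2 (-0.28 and -0.55) kept their sign in both. For PEX5, ABCD3, HSD17B4 and PEX26, which had 1 direction on 8 of 8 arrays, this could not have been otherwise. Slide means had opposite signs for 11 of 28 members, and the share over all genes is not given here. None of the 11 was among these 6, which had 1 sign in 4 of 4 pairs, so their slide means could not differ in sign.

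**Figure D5:**
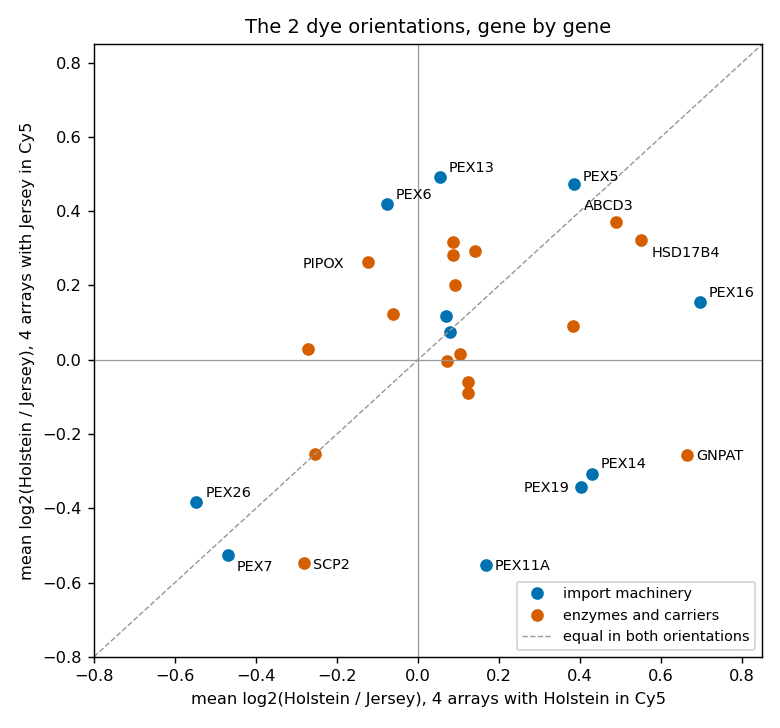
Mean log2 of Holstein over Jersey over the 4 arrays with Holstein in Cy5 (horizontal axis) and the 4 with Jersey in Cy5 (vertical axis) for 28 genes, the dashed line marking equal values. PEX5, ABCD3, HSD17B4, PEX26 and SCP2 lie in the quadrants where both orientations share a sign, and GNPAT, PEX19, PEX14 and PEX11A lie where they oppose.

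Other genes of the peroxisome showed no lean to Holstein. Of 57 further genes listed, 46 were on the array and 40 had a kept probe, of which 19 leaned to Holstein and 21 to Jersey around a median of -0.01. An unadjusted p under 0.05 on pair means was reached by 4 of the 40 in Holstein and 6 in Jersey, where all genes had 8.46% and 7.41%, and none passed the limma adjusted threshold on pair means. In the block fit, 2 passed in Holstein, DHRS4 and PXMP2, and 3 in Jersey, PAOX, FAR2 and ISOC1, against 2.33% and 2.13% of all genes. This list too was drawn up with earlier results known.

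DHRS4, a carbonyl and retinal reductase, had the smallest p of these, standing at 0.85, 0.60, 0.65 and 0.60 by pair (mean 0.67 ± 0.07, adjusted p of 0.0884 in limma on pair means). PAOX, the polyamine oxidase, stood at -0.45, -0.59, -0.62 and -0.33 (mean -0.50 ± 0.08, adjusted p of 0.119), with Holstein above background on 4 arrays. FAR2, a second fatty acyl-CoA reductase, stood at -0.35, -0.95, -1.07 and -0.44 (mean -0.70 ± 0.15, adjusted p of 0.170), on the other side of 0 from FAR1. PXMP2, a membrane channel protein, at 0.84 ± 0.18, and ISOC1, at -1.25 ± 0.29, are named because they passed in the block fit and were chosen after their values were seen.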

How the data were processed

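Per the labels' protocols, RNA (PicoPure kit) went through 2 rounds of T7 amplification before it received Cy3 or Cy5. The deposited scanner files give foreground and local background as raw intensity per spot, without correction. A further deposited column, of the kind other, marks spots ignored at quantification (131 in all, 0 of them on members). The value table, also deposited, holds a log2 ratio of unstated processing, whose sign against the scanner files was Jersey over Holstein; it served as an alternative. Columns assigned to no array number 0.

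Values were recomputed in R 4.3.3 with limma 3.58.1, using normexp (offset 50) on mean foreground and median background, and loess within arrays with control and ignored spots at weight 0. The signal levels of single genes in each breed, and their ranges, were in addition scaled between arrays by the Aquantile method of limma. Ratios were not scaled between arrays, and the members' mean ratios were the same with that scaling. Probes above the mean plus 2 SD of 153 negative control spots were kept as stated, 32129 of 43794. The number of arrays limits the precision. Symbols came from the platform annotation, updated through RefSeq (ARS-UCD2.0), with 20025 probes matched by symbol, 1600 by a synonym and 165 not.

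The labels do not name the dye-swap pairs. Among 24 possible matchings, that with the highest summed correlation of residuals was used, with r of 0.46 to 0.71 within pairs and -0.36 to -0.02 otherwise; picking it this way does not test it. Pair means were fitted with lmFit and eBayes on all kept probes, with Benjamini-Hochberg adjustment at 0.05. The block fit covered 32033 probes, at a correlation of 0.31. Values by pair are given for members with an unadjusted p under 0.05, members whose probes disagree with one of them at such a p, and the 3 other peroxisome genes of smallest p; further pair values were added where 1 pair decides a mean. Members and lists were chosen with earlier results of these data known. Alternatives covered background correction, normalization, dim probes, pairing, slide, variance prior, value source, pairs left out, thresholds and probe choice. Protein targeting signals were not analysed here.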

Additional observations from a re-analysis of the deposited data

Results flagged for a closer look

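EHHADH had 1 pair far from the others, pair 2 at -0.15 against 0.12 to 0.14 in pairs 1, 3 and 4, a gap of 0.943 of the range, and its mean without pair 2 was 0.13. IDH1 likewise had pair 4 at 0.20 against -0.04 to -0.01 in pairs 1 to 3, a gap of 0.849 of the range, and its mean without pair 4 was -0.02. That pair value came from 1 array, at 0.44 against -0.05 on the other, and the probe was saturated on 1 array and lay near 15.2 on the log2 signal scale in most channels. Chance marks about 1 in 20 such groups, and 28 were examined. The cause was not tested.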

How the results depend on the processing

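Of 28 genes, the number past the limma adjusted threshold was 0 on pair means, 2 with the pair as a random block (replicate block), 5 over 8 arrays with no block and 6 at an unadjusted p under 0.05. Without a block, PEX5, PEX26, ABCD3, HSD17B4 and SCP2 passed, with adjusted p of 0.0207, 0.0416, 0.00661, 0.0276 and 0.0441. Over all alternatives these 5 had adjusted p of 0.0207 to 0.715, 0.0416 to 0.712, 0.00661 to 0.597, 0.0276 to 0.597 and 0.0441 to 0.782. Over all probes the count was 1209 with the block, 2054 with none, 48 with only probes above background in both breeds on all arrays, 189 at an adjusted p under 0.10, 4483 at an unadjusted one under 0.05 and 0 to 2 with a pair left out. Members at an unadjusted p under 0.05 numbered 9 with the block, 10 with no block and 3 to 7 with a pair left out, 3 of them without pair 2. The shares of all genes beside these counts, and beside the 5 members passing with no block, are not given here. These counts therefore do not set the members apart from other genes. The enzyme list had 8 genes higher in Holstein on slide 1 alone, and 8 of 10 among probes above background throughout; its median was 0.15 with median centring and -0.00783 on slide 1 alone. Means that changed sign on slide 1 alone were PEX3 -0.124, PEX6 -0.0496, EHHADH -0.00783, AMACR -0.0493, PECR -0.400, HACL1 -0.0322, AGPS -0.0220 and IDH1 -0.0299, and on slide 2 alone PEX19 -0.123, PEX14 -0.0622 and PEX11A 0.0707. EHHADH turned to -0.00099 without background subtraction and -0.0023 in the deposited table, and SCP2 to 0.15 as the mean of its probes. With a pair left out, the means that changed sign ranged from -0.11 to 0.10 for PEX19, -0.15 to 0.19 for PEX14, -0.0474 to 0.328 for ACOX3, -0.0388 to 0.142 for HACL1, -0.123 to 0.258 for PECR, -0.0044 to 0.0655 for AGPS, -0.0538 to 0.286 for PEX3 and -0.0224 to 0.0575 for IDH1. On pair means, only SCP2 of these genes was under the unadjusted threshold, and the cause of the changes was not tested. The pairing comes from the arrays and not from the labels, and at the adjusted threshold the block changed no other call among the members. Dim signal limits PEX10, PEX13, EHHADH, CROT and PIPOX.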
